A study of Danio rerio with 15 samples.

Results

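The proteasome genes of zebrafish larvae (Danio rerio, AB wild type) were examined after exposure to a pair of chlorinated triphenyl compounds. They were taken by symbol, as the genes named psma to psmg followed by a number, with a mean of at least 10 normalised reads in both of the authors' deposited result tables. Of 56 such genes 50 met the minimum, out of 36351 genes in all and 22734 that met it. By their known roles these 50 comprised 16 standard subunits or subunit copies of the core particle, 1 inducible core subunit, 20 subunits of the regulatory particle, 6 activators or inhibitors, 6 assembly factors and 1 gene, psmc3ip, that encodes no proteasome subunit.

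Whole larvae were exposed through the water from 24 to 100 hours after fertilization to 0.01% DMSO by volume, to 50 nM TCPM, tris(4-chlorophenyl)methane, or to 50 nM TCPMOH, tris(4-chlorophenyl)methanol. The compounds differ at the central carbon, where TCPM has a hydrogen and TCPMOH a hydroxyl group. Each group had 5 samples, each a pool of 8 to 10 larvae, drawn over 3 experimental replicates from the embryos of 20 breeding pairs, and polyadenylated RNA was sequenced. Which samples share an experimental replicate is not stated, so the p-values measure the spread between pools. Where only a lone read hit a gene, its values gave 4 libraries per group for each of the authors' fits, with the same 4 DMSO libraries in both, and which sample of each group lay outside the fits is not known here. They also showed that the deposited fold changes put DMSO in the numerator. Signs are reversed here, so that a value above 0 is higher with the compound.

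The proteasome degrades proteins that carry chains of ubiquitin. Its core particle is a barrel of alpha rings, which gate the entrance, and beta rings, which hold the proteolytic sites. The regulatory particle caps the barrel, binds and removes ubiquitin, and threads the unfolded protein inward with a ring of ATPases. In mammalian cells the genes of both particles are known to be raised together when proteasome activity is short, through the transcription factor encoded by nfe2l1.

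Reads assigned to genes, estimated from the tables, were 18.2 to 25.9 M per library for the TCPM comparison and 18.1 to 25.7 M for the TCPMOH comparison. Of 44 marker genes of 9 tissues, from muscle and neurons to liver and skin, 42 reached the minimum of 10 normalised reads for both compounds, and the other 2 are red blood cell markers. Among the 4 intestine markers 3 were higher with TCPM and 1 with TCPMOH in the authors' deposited tables, and 1 of 5 red blood cell markers was higher with TCPM, beside 1.27% of all genes called higher with TCPM and 1.54% with TCPMOH. None of the 44 was lower, and the part of tissue make-up in the values below was not tested. In whole larvae a change in the number of cells of a type and a change in RNA per cell cannot be told apart.

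No proteasome gene passed the threshold of an adjusted p under 0.05 with either compound. In the authors' deposited table for TCPM, DESeq2 called 0 of the 50 genes, beside 1.89% of the 22223 genes tested, and 2 of the 50 had an unadjusted p under 0.05, beside 8.62% of all genes. In the authors' deposited table for TCPMOH it also called 0 of the 50, beside 2.55% of 21491 genes tested, and 0 had an unadjusted p under 0.05, beside 9.68%. Among 50 genes a count of 0 called is near the shares of 1.89% and 2.55%. The 2 genes at an unadjusted p under 0.05 with TCPM were psma6l, which was higher, and psmd11b, which was lower.

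The fold changes of the members lay close to 0. Their median log2 fold change was -0.012 with TCPM and 0.014 with TCPMOH, beside -0.00029 and -0.0030 over 22732 genes. The Wald score, which is the log2 fold change over its standard error, had an SD over the 50 genes of 0.907 with TCPM and 0.672 with TCPMOH, beside 1.28 and 1.36 over all genes. The median absolute Wald score was 0.632 and 0.363 in the members and 0.711 and 0.695 in all genes.

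**Figure D1:**
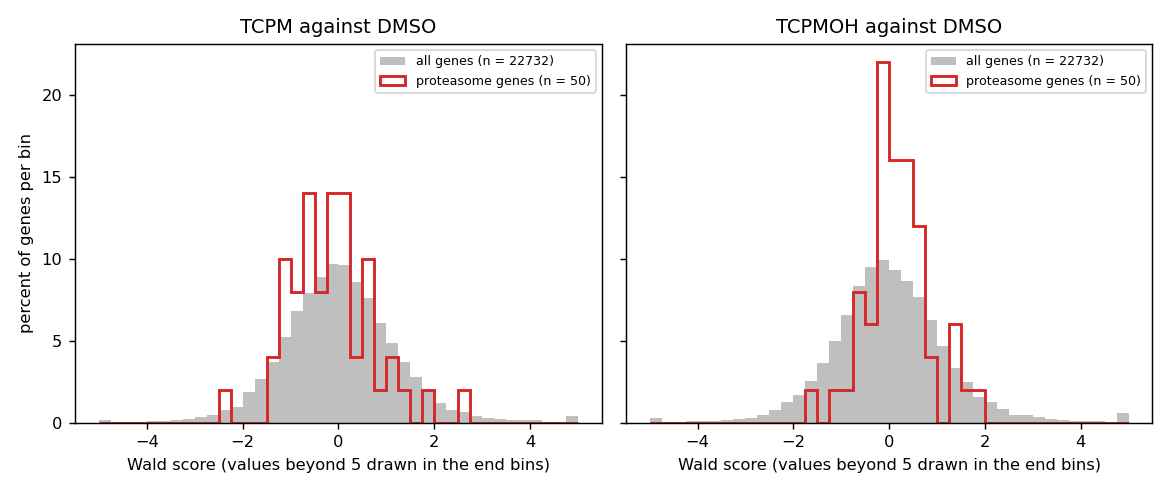
Histograms of the Wald score for TCPM (left) and TCPMOH (right) against DMSO, as percent of genes per bin, for 22732 genes (grey) and the 50 proteasome genes (red outline). With TCPMOH the SD over the proteasome genes was 0.672 against 1.36 over all genes, and with TCPM it was 0.907 against 1.28.

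The deposited fold changes had been shrunken toward 0, and undoing that shrinkage has 2 solutions for each gene. For 47 of the 50 genes the 2 were not close, and the one nearer the deposited value was taken. This choice was made because their base means exceed those where standard errors peak, 58.7 for TCPM and 41.5 for TCPMOH. The other solution gives wider intervals, for psmc1a with TCPM from 0.398-fold to 2.24-fold. With the solution taken, the 95% interval of the fold for those 47 lay within 1.5-fold of DMSO in either direction for both compounds. It lay within 1.25-fold for 38 genes with TCPM and 38 with TCPMOH. The fold itself lay between 0.9 and 1.1 for 41 of them with TCPM and 44 with TCPMOH. Among these 47 it ranged from 0.869 to 1.14 with TCPM and from 0.904 to 1.19 with TCPMOH. The 3 genes left out include the highest folds of all members. With TCPM and TCPMOH, psma6l was at 1.53 and 1.23, psmc3ip at 1.36 and 1.19, and psme2 at 0.916 and 0.985. For psma6l the larger solution was taken with TCPM and the smaller with TCPMOH, so its folds cannot be set against each other. In log2 its solutions were 0.53 and 0.61 with TCPM and 0.30 and 0.39 with TCPMOH.

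The tables hold no value per library, so the level in each group is given as the mean normalised count that the base mean and the fold before shrinkage imply. The 16 core genes summed to 16656 in DMSO and 16477 in TCPM larvae in the first fit, and to 15971 in DMSO and 15802 in TCPMOH larvae in the second. The 20 genes of the regulatory particle summed to 23158 in DMSO and 22463 in TCPM larvae, and to 22200 in DMSO and 22588 in TCPMOH larvae. The core sum was thus 1.08% lower with TCPM and 1.06% lower with TCPMOH, while the regulatory sum was 3.00% lower with TCPM and 1.75% higher with TCPMOH. These sums carry no error, since the tables hold means over libraries, and the 2 fits scale the same DMSO reads differently, so each compound is read against its own DMSO value.

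**Figure D2:**
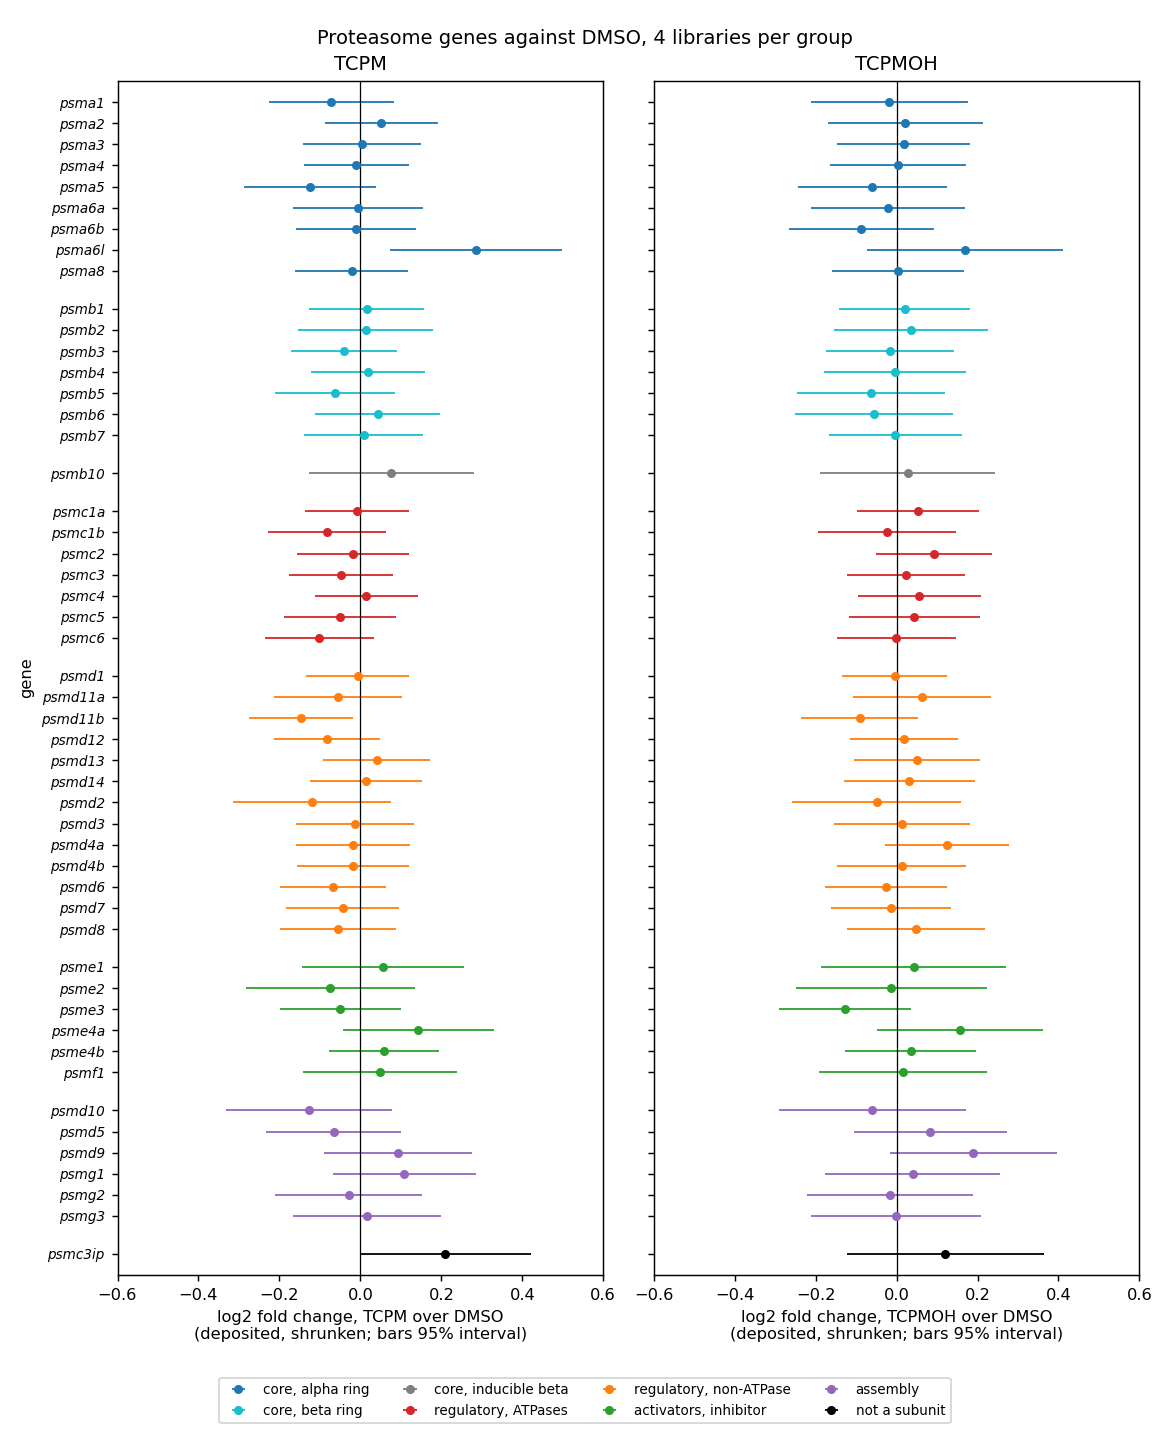
Log2 fold change of each of the 50 genes over DMSO with TCPM (left) and TCPMOH (right), as deposited with the sign turned, with 95% intervals, coloured by role. The intervals of psma6l (at 0.29) and psmd11b (at -0.15) with TCPM do not reach 0, and those of the other genes and of every gene with TCPMOH do.

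The alpha ring is built of 7 different subunits, and all positions had a gene among the members, psma6 with 3 copies (psma6a, psma6b and psma6l) and the psma7 position with psma8. Leaving out psma6l, the log2 fold changes of the ring ran from -0.12 for psma5 to 0.052 for psma2 with TCPM in the authors' deposited table. With TCPMOH they ran from -0.087 for psma6b to 0.021 for psma2 in the authors' deposited table. No alpha gene passed with either compound.

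The mean normalised count of psma5 was 1033 in DMSO and 929 in TCPM larvae, and 990 in DMSO and 941 in TCPMOH larvae. The log2 fold changes, each given ± its standard error, taken from the authors' deposited tables, were -0.12 ± 0.0833 for TCPM (DESeq2 adjusted p = 0.766) and -0.060 ± 0.0940 for TCPMOH (adjusted p = 0.966). The gene was thus lower on average with both compounds, and neither value passed.

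The low-count copy psma6l (Entrez gene 83917) stood apart from the other alpha genes. Its log2 fold change was 0.29 ± 0.108 with TCPM (unadjusted p = 0.00809, DESeq2 adjusted p = 0.219) and 0.17 ± 0.123 with TCPMOH (adjusted p = 0.810) in the authors' deposited tables. Its base mean, the mean normalised count over the 8 libraries of a fit, was only 58.2 and 51.0. Before shrinkage its log2 fold change with TCPM had solutions at 0.53 and 0.61, whose 95% intervals ran from 1.101-fold to 1.90-fold and from 1.12-fold to 2.10-fold. The more abundant copies psma6a and psma6b were at -0.0057 and -0.011 with TCPM in the authors' deposited table. No source used here tells how reads were shared among these copies, so the single values are uncertain.

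The beta ring holds the proteolytic sites, in the subunits encoded by psmb5 (cutting after hydrophobic residues), psmb6 (after acidic residues) and psmb7 (after basic residues). Mean normalised counts of psmb5 were 1536 in DMSO and 1462 in TCPM larvae, and 1473 in DMSO and 1397 in TCPMOH larvae. The fold was 0.951 with a 95% interval of 0.844 to 1.07 with TCPM, and 0.948 with an interval of 0.814 to 1.104 with TCPMOH. For psmb7 the fold was 1.01 (0.895 to 1.13) with TCPM and 0.998 (0.876 to 1.14) with TCPMOH.

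The means of psmb6 were 963 in DMSO and 998 in TCPM larvae, and 924 in DMSO and 879 in TCPMOH larvae. The gene psmb6 was at 0.043 ± 0.0787 for TCPM (DESeq2 adjusted p = 0.967) and -0.056 ± 0.0996 for TCPMOH (adjusted p = 0.973), in the authors' deposited tables. It was above DMSO with TCPM and below it with TCPMOH, both times by less than its standard error. For psmb3, a structural beta subunit, the log2 fold changes were -0.040 ± 0.0669 (DESeq2 adjusted p = 0.966) and -0.016 ± 0.0807 (adjusted p = 0.991) in the authors' deposited tables. All 7 standard beta genes lay between -0.062 and 0.043 with TCPM and between -0.064 and 0.036 with TCPMOH, the narrowest range of any class with more than 1 gene.

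In cells exposed to interferon, the proteolytic subunits are replaced by inducible forms encoded by psmb8, psmb9 and psmb10, which make up the immunoproteasome. Of these only psmb10 met the minimum, with means of 172 in DMSO and 187 in TCPM larvae, and 165 in DMSO and 170 in TCPMOH larvae. It was at 0.077 ± 0.104 (DESeq2 adjusted p = 0.946) and 0.028 ± 0.110 (adjusted p = 0.990), in the authors' deposited tables. Base means in the TCPM and TCPMOH tables were 4.83 and 3.74 for psmb8a, 5.15 and 5.08 for psmb9a, 7.66 and 5.81 for psmb12, and 1.78 and 1.65 for psmb13a. These 4 genes follow each other with no gene between them in the RefSeq annotation of the assembly GRCz12tu, and all 4 were below 10. The thymus forms psmb11a and psmb11b had base means of 0.485 and 0.613, and of 0.394 and 0.502. For psmb8a the 95% interval of the fold with TCPM ran from 0.412 to 2.59. It was far wider for the thymus forms, from 0.0473 to 24.9 for psmb11a and from 0.0168 to 23.4 for psmb11b. Changes of a low-count form within its own bounds were not detectable at this depth. The gene nearest above the minimum was psmc3ip with base means of 46.5 and 41.2, and nearest below it was psmb12.

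The base of the regulatory particle is a ring of 6 ATPases, encoded by psmc1 to psmc6, with psmc1 in the copies psmc1a and psmc1b. With TCPM 1 of the 7 genes had a log2 fold change above 0, beside 50.1% of all genes, and with TCPMOH 5 of 7 did, beside 49.1%, with medians of -0.047 and 0.044. None passed with either compound. Means of psmc2 were 1386 in DMSO and 1366 in TCPM larvae, and 1329 in DMSO and 1426 in TCPMOH larvae. The gene psmc2 was at -0.018 ± 0.0707 (DESeq2 adjusted p = 0.993) and 0.092 ± 0.0727 (adjusted p = 0.846), in the authors' deposited tables. For psmc4 the values were 0.015 ± 0.0650 (DESeq2 adjusted p = 0.994) and 0.056 ± 0.0776 (adjusted p = 0.961) in the authors' deposited tables.

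The other regulatory subunits, with 13 genes, bind ubiquitin, remove it and hold the particle together. Of these genes 11 were below 0 with TCPM and 8 above 0 with TCPMOH. Over all genes 50.1% were above 0 with TCPM and 49.1% with TCPMOH, and 8 of 13 is near the latter share. The medians of the 13 genes were -0.044 and 0.013. The deubiquitinase gene psmd14 had folds of 1.01 (95% interval 0.907 to 1.13) with TCPM and 1.02 (0.901 to 1.17) with TCPMOH. The ubiquitin receptor gene psmd4a had means of 655 in DMSO and 646 in TCPM larvae, and 628 in DMSO and 693 in TCPMOH larvae. It was at -0.018 ± 0.0720 (DESeq2 adjusted p = 0.993) and 0.13 ± 0.0781 (adjusted p = 0.715) in the authors' deposited tables. Its copy psmd4b was at -0.018 and 0.013 there. The scaffold gene psmd1 had means of 2300 in DMSO and 2287 in TCPM larvae, and 2205 in DMSO and 2196 in TCPMOH larvae, and its log2 fold changes of -0.0071 ± 0.0654 (DESeq2 adjusted p = 0.997) and -0.0050 ± 0.0659 (adjusted p = 0.996) in the authors' deposited tables lay close to 0.

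The subunit gene psmd11b (Entrez gene 322265), whose product links the lid to the base, had the lowest deposited log2 fold change of all members with TCPM. Its means were 736 in DMSO and 657 in TCPM larvae, and 705 in DMSO and 658 in TCPMOH larvae. It was at -0.15 ± 0.0653 for TCPM (unadjusted p = 0.0241, DESeq2 adjusted p = 0.409) and -0.091 ± 0.0736 for TCPMOH (adjusted p = 0.856), in the authors' deposited tables. Before shrinkage the fold with TCPM was 0.893 with a 95% interval of 0.809 to 0.985. On that scale psmd10, at 0.869, and psmd2, at 0.888, were lower. The copy psmd11a was at -0.055 and 0.063 in the authors' deposited tables.

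Activators open the core barrel in place of the regulatory particle. The genes psme1 and psme2, whose products form an interferon-induced cap, psme3, a nuclear cap, psme4a and psme4b, copies of the gene of a large single-chain cap, and the inhibitor gene psmf1 ran from -0.075 to 0.14 with TCPM and from -0.13 to 0.16 with TCPMOH. Means of psme4a were 307 in DMSO and 351 in TCPM larvae, and 294 in DMSO and 339 in TCPMOH larvae, or 1.14-fold (95% interval 0.959 to 1.36) and 1.15-fold (0.957 to 1.39). It was the highest of the class with both compounds, which were read against the same DMSO libraries. For psme3 the means were 688 in DMSO and 661 in TCPM larvae, and 660 in DMSO and 596 in TCPMOH larvae. The gene psme3 was at -0.049 ± 0.0761 (DESeq2 adjusted p = 0.958) and -0.13 ± 0.0836 (adjusted p = 0.747), and psme2 at -0.075 ± 0.106 (adjusted p = 0.950) and -0.013 ± 0.120 (adjusted p = 0.994), in the authors' deposited tables.

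Assembly factors hold unfinished particles and leave the finished proteasome. The core factors psmg1, psmg2 and psmg3 and the base factors psmd5, psmd9 and psmd10 had base means from 148 to 300.4 with TCPM, below those of the standard subunits other than psma6l, although counts are not per length and were not compared between genes beyond this. The gene psmd9 had means of 185 in DMSO and 202 in TCPM larvae, and 177 in DMSO and 211 in TCPMOH larvae. Its value of 0.19 ± 0.106 for TCPMOH was the highest among all members with that compound and had their smallest unadjusted p, 0.0725 (DESeq2 adjusted p = 0.612), in the authors' deposited table. Means of psmd5 were 252 in DMSO and 238 in TCPM larvae, and 242 in DMSO and 259 in TCPMOH larvae. The gene psmd5 was at -0.066 ± 0.0853 (DESeq2 adjusted p = 0.944) and 0.083 ± 0.0963 (adjusted p = 0.942), and psmg1 at 0.11 ± 0.0903 (adjusted p = 0.857) and 0.040 ± 0.110 (adjusted p = 0.983), in the authors' deposited tables.

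The gene psmc3ip, which meets the symbol rule, is known from mammals as a factor of meiotic recombination. It was at 0.21 ± 0.108 for TCPM (unadjusted p = 0.0520, DESeq2 adjusted p = 0.585) and 0.12 ± 0.124 for TCPMOH (adjusted p = 0.921), in the authors' deposited tables. Without it the medians of the remaining 49 genes were -0.014 and 0.013. By Entrez identifier RefSeq gives proteasome names to a further 4 genes that the tables list under other symbols. They are psmg4, psma2b, a second gene model of psmd2, and psme3ip1, a binding partner of the psme3 product. In log2, these genes of the authors' deposited tables were at -0.084, 0.013, 0.016 and 0.067 with TCPM and -0.051, 0.041, -0.0082 and 0.074 with TCPMOH, and none passed. The model listed as psmd2 was at -0.12 and -0.049 in the authors' deposited tables, so the 2 models of that gene differ in sign with TCPM.

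The compounds were then compared with each other, at the same dose and time, to ask whether hydroxyl in place of hydrogen changes the response of these genes. This is 1 pair of compounds. The difference of the log2 fold changes, TCPMOH minus TCPM, was set over its standard error with allowance for the shared DMSO libraries, and p-values of a two-sided normal test were adjusted by the Benjamini-Hochberg method over 22732 genes. None of the 50 proteasome genes differed at an adjusted p under 0.05, beside 0.453% of all genes, to which 0 of 50 is near. At an unadjusted p under 0.05 were 0 of the 50, beside 4.62%. Before shrinkage, with the solutions taken above, the 95% interval of the difference lay within 1.5-fold in either direction for all 47 genes. It lay within 1.25-fold for 37 of them.

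Within these bounds most genes of the regulatory particle had values of the same sign. Against DMSO 17 of its 20 genes found by symbol had values below 0 with TCPM, where 50.1% of all genes were above 0, and 13 of 20 had values above 0 with TCPMOH, beside 49.1%. All 20 of these genes had a difference above 0, 7 of 7 ATPases and 13 of 13 others, while 8 of 16 core genes did, beside 49.3% of all genes. In the lists described below it was above 0 for 8 of 12 partners, 9 of 13 regulators and 10 of 12 ubiquitin and enzyme genes. The same held for 13 of 18 unfoldase and endoplasmic reticulum genes, 12 of 22 autophagy genes and 4 of 12 antigen and interferon genes. The count of 20 holds for the symbol rule alone. The second model of psmd2, with a base mean of 888 against 581 for the model counted (both in the TCPM table), was at -0.024, and the lid subunit gene sem1 was at -0.079, while the subunit gene adrm1 was at 0.051. With these 3 genes, added after their values were seen, 21 of 23 were above 0. The median difference was 0.060 for the 20 regulatory genes and 0.00098 for the core, beside -0.0013 over all genes. No test was made of this count, since the tables do not give how far these genes vary together between pools. Among those 20 the differences ran from 0.0022 for psmd1 to 0.14 for psmd4a, and in the core from -0.12 for psma6l to 0.064 for psma5.

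On the deposited scale the largest difference was that of psmd5, at 0.15 ± 0.0913 (unadjusted p = 0.103). Next came psmd4a, at 0.14 ± 0.0753 (unadjusted p = 0.0574). The 95% intervals of psmd5 and psmd4a before shrinkage ran from -0.037 to 0.40 and from -0.0059 to 0.33. Among the ATPases psmc2 was at 0.11 (interval before shrinkage -0.035 to 0.28) and psmc4 at 0.041 (-0.11 to 0.20). For psmb6 the difference was -0.099 (-0.34 to 0.099) and for psmb3 0.024 (-0.14 to 0.19). Among the remaining classes psme2 was at 0.061, psme3 at -0.078, psmg1 at -0.069, psmb10 at -0.049 and psmc3ip at -0.089. All of the intervals given here hold 0.

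**Figure D3:**
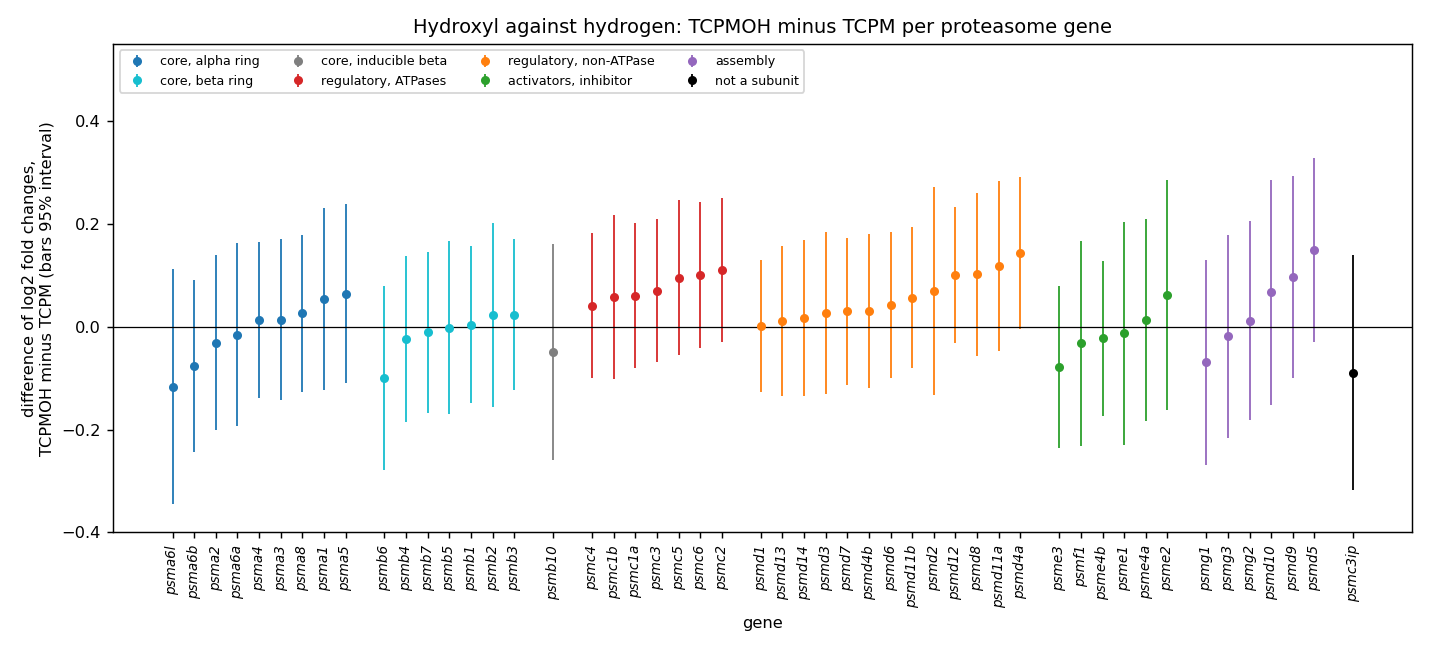
Difference of the log2 fold changes, TCPMOH minus TCPM, per gene with 95% intervals on the deposited scale, ordered within each role. All 50 intervals span 0, and the points of the 20 regulatory genes found by symbol (red and orange) lie above 0. The second psmd2 model (-0.024) and sem1 (-0.079), which that rule leaves out, are not drawn.

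Genes around the proteasome were examined by lists. Partners were listed by 17 symbols, of which 12 matched a gene and the others had no match. Among the 12 were pomp, which helps the core mature, sem1, a small lid subunit, adrm1, a ubiquitin receptor, and the deubiquitinase genes usp14 and uchl5. None passed with either compound in DESeq2, beside 1.89% and 2.55% of all genes with TCPM and TCPMOH, and 0 had an unadjusted p under 0.05 with either, beside 8.62% and 9.68%. In a list of 12 genes a count of 0 is near these shares. Their median log2 fold changes were -0.032 with TCPM and -0.0021 with TCPMOH. The gene pomp was at 0.0060 and -0.0047 and adrm1 at -0.072 and -0.022, in the authors' deposited tables.

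The list of 13 regulators of proteasome genes had 1 higher member with each compound and none lower. With TCPM, where 1.27% of all genes were called higher, it was nfe2l2b, a duplicate of the antioxidant regulator gene nfe2l2. Its means were 260.2 in DMSO and 365 in TCPM larvae, and 249 in DMSO and 294 in TCPMOH larvae. It rose by 0.39 ± 0.0875 with TCPM (DESeq2 adjusted p = 0.00131) and was at 0.20 ± 0.0897 with TCPMOH (adjusted p = 0.365), in the authors' deposited tables. The difference between the compounds did not pass (unadjusted p = 0.0375, adjusted p = 1.00 over 22732 genes).

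With TCPMOH, where 1.54% of all genes were called higher, it was maff, which encodes a small partner protein of these factors. Its means were 911 in DMSO and 1022 in TCPM larvae, and 873 in DMSO and 1051 in TCPMOH larvae. The gene maff rose by 0.24 ± 0.0737 with TCPMOH (DESeq2 adjusted p = 0.0428) and was at 0.15 ± 0.0716 with TCPM (adjusted p = 0.549), in the authors' deposited tables. Adjusted over every gene with a p-value, the call of maff is lost (adjusted p = 0.0634). The difference between the compounds did not pass here either (unadjusted p = 0.182).

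The gene nfe2l1b, a duplicate of the regulator gene of proteasome subunits named above, passed with neither compound but differed between them. It is named after its values were seen. Its means were 680.0 in DMSO and 612 in TCPM larvae, and 652 in DMSO and 743 in TCPMOH larvae. It was at -0.14 ± 0.0665 with TCPM (DESeq2 adjusted p = 0.546) and 0.17 ± 0.0828 with TCPMOH (adjusted p = 0.495), in the authors' deposited tables. The difference was 0.30 ± 0.0760 (adjusted p = 0.0214 over 22732 genes), or 0.34 with a 95% interval of 0.17 to 0.51 before shrinkage. The call was lost only with a covariance of 0, a setting that leaves out the shared DMSO libraries. Over the alternatives tried the adjusted p ran from 0.00175 to 1.00, the latter with that setting. The copy nfe2l1a was at 0.13 with TCPM and 0.059 with TCPMOH, and its difference of -0.075 had the other sign and did not pass.

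Of 12 measured genes of ubiquitin and its activating and conjugating enzymes, 1 was called with TCPM and 0 with TCPMOH. Over all genes 1.89% were called with TCPM and 2.55% with TCPMOH, and 0 of 12 is near the latter share. The conjugating enzyme gene cdc34a had means of 770.0 in DMSO and 622 in TCPM larvae, and 738 in DMSO and 647 in TCPMOH larvae. It fell by 0.26 ± 0.0758 with TCPM (DESeq2 adjusted p = 0.0308), beside 0.616% of all genes called lower, and was at -0.17 ± 0.0830 with TCPMOH (adjusted p = 0.498), in the authors' deposited tables. Its copy cdc34b was at -0.048 and 0.022, and the polyubiquitin genes ubb and ubc were at 0.074 and 0.069 with TCPM and 0.081 and 0.076 with TCPMOH, in the authors' deposited tables.

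None of 18 genes of the unfoldase vcp and of protein degradation at the endoplasmic reticulum passed in DESeq2, beside 1.89% and 2.55% of all genes with TCPM and TCPMOH. At an unadjusted p under 0.05 were 2 and 0 of them, beside 8.62% and 9.68% of all genes. None of 22 autophagy genes passed, with 2 and 3 at an unadjusted p under 0.05, near the same shares of all genes. The autophagosome gene map1lc3cl came nearest, at 0.29 with TCPM (DESeq2 adjusted p = 0.0835) and 0.35 with TCPMOH (adjusted p = 0.105) in the authors' deposited tables. Of 17 listed genes of antigen presentation and interferon response 12 reached the minimum of 10, of which 11 and 10 had an adjusted p with TCPM and TCPMOH, and none passed, with 0 and 1 at an unadjusted p under 0.05, which is also near those shares. The median log2 fold changes of these 3 lists were 0.0034, 0.0057 and -0.0038 with TCPM and 0.046, 0.035 and -0.020 with TCPMOH.

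**Figure D4:**
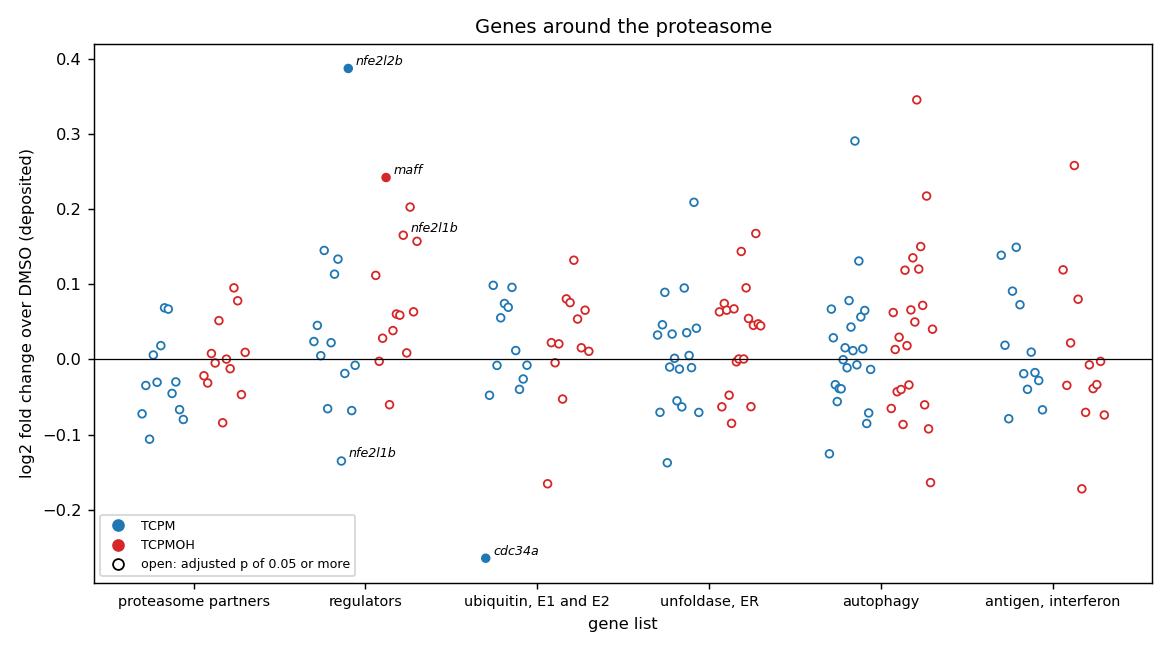
Log2 fold change over DMSO of each measured gene of 6 lists around the proteasome, with TCPM in blue and TCPMOH in red, as deposited with the sign turned. Filled points have an adjusted p under 0.05 (nfe2l2b and cdc34a with TCPM, maff with TCPMOH), and nfe2l1b, labelled with both compounds, lies below 0 with TCPM and above 0 with TCPMOH.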

How the data were processed

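FastQC, cutadapt, STAR, featureCounts and DESeq2 are named, per the submitters' processing notes, and gene models of version V4.3.2, per the file headers. Tool versions, genome build, strand setting and the handling of reads with several matches are not named in those sources. Deposited values are the mean signal (counts divided by size factors, averaged over libraries), the log2 fold change with that change's standard error, the Wald score, the p-value and the adjusted p-value. They hold 0 columns of per-sample values, so the planned removal of single libraries was not run.

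With Python 3.11.15, pandas 2.3.3 and scipy 1.17.1, signs were turned, and the shrinkage was undone from a normal prior (SD 0.216 for TCPM, 0.248 for TCPMOH, in log2), set as 2 times the largest standard error. This has 2 solutions for each gene, and base mean decided which was taken. For psma6l, psme2 and psmc3ip, near the prior's own information, the 2 solutions lie close together. Group means follow from base mean and fold. For the difference between compounds the correlation of the fold changes was set to 0.5, as equal groups with shared controls give, and 22732 genes entered, those with p-values whose base mean reached 10 for both compounds. The difference test, the undoing of the shrinkage and the count of libraries were run on simulated data. That simulation was built with the same prior and a correlation of 0.5, so it checks the arithmetic and not these settings. The correlation estimated from the scores of the data was 0.622. The choice of solution by base mean was not tested.

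The members and lists were chosen with earlier results of these data known. Named by rule were members past a threshold, the highest and lowest difference of each class, and listed genes past the threshold. Among the genes named for their role or after their values were seen are psma2, psma6a, psma6b, psmb5, psmb7, psmd4b, psmd9, psmd11a, psmd11b, psmd14, psme4a and those named beside called genes. Others are psmc1a, psmd2, psmd10, adrm1, pomp, sem1 and map1lc3cl, the last picked by its adjusted p. Read counts without molecular identifiers are not independent molecules. The planned motif search in promoters was not analysed here. All 50 members matched RefSeq by Entrez identifier.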

Additional observations from a re-analysis of the deposited data

Results flagged for a closer look

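The effect on nfe2l1b differed between the compounds by the test of the difference itself. Its log2 fold change was 0.30 higher with TCPMOH than with TCPM (adjusted p = 0.0214 over 22732 genes). By this test 0.453% of all genes were called, and no other gene of the members or lists was. Over the alternatives tried the adjusted p of nfe2l1b ran from 0.00175 to 1.00, the latter with a covariance of 0, which leaves out the shared DMSO libraries. The part of single libraries in this difference was not tested, since the tables hold means.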

How the results depend on the processing

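The count of 0 called proteasome genes was the same under every alternative run, for TCPM, TCPMOH and their difference, also with the 4 genes that RefSeq names added, an alternative chosen after seeing the data. Undoing the shrinkage leaves the Wald score against DMSO as deposited, so that alternative could not change the calls of either compound against DMSO. The smallest adjusted p of any member under any alternative was 0.219. Of the listed genes, maff with TCPMOH lost its call when adjusted over every gene with a p-value (adjusted p = 0.0634) and nfe2l1b lost its difference with a covariance of 0 (adjusted p = 1.00). The count of 20 regulatory genes found by symbol with a difference above 0 was the same before shrinkage. Centring on the median of all genes raised every difference, so it could not lower this count. With the second psmd2 model, sem1 and adrm1 added after the data were seen the count became 21 of 23. Over all genes the difference test called 103 with the main setting, 15 with a covariance of 0 and 182 with a correlation of 0.622 estimated from the scores. Centring turned the sign of values near 0, namely psmc6 (0.00251) and psmg3 (0.00132) with TCPMOH and psmb5 (0.00108) in the difference. Before shrinkage psmc3ip was at 0.44 with TCPM and 0.25 with TCPMOH. No paired analysis was possible because the groups share no replicate numbers and the tables hold no columns per library, and for the latter reason no library could be left out. The precision is set by 4 libraries per group and by low counts for psma6l, psme2, psmc3ip and the immune forms.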
